A study of Mus musculus with 12 samples.

Results

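The 26 genes described here make cholesterol or govern how much of it a cell makes, carries and disposes of. They were taken by name from the count table of a brain RNA-seq study of mice, which holds 21643 genes. The list comprises 19 enzymes that lead from acetyl-CoA to cholesterol, 5 regulators of the sterol-sensing SREBP system (Srebf1, Srebf2, Scap, Insig1 and Insig2), the sterol carrier Stard4 and the cholesterol hydroxylase Cyp46a1. All 26 were among the 15061 genes kept by the filter on low counts, with 177 to 6672 read counts per library.

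All 12 libraries came from mice of the 5xFAD genotype, which carry human amyloid precursor protein and presenilin transgenes with familial Alzheimer mutations, expressed mainly in neurons, and deposit amyloid in the brain. The 4 groups of 3 libraries were ShK-223 (an engineered analogue of a sea anemone peptide toxin), PAP-1 (a small-molecule psoralen), PBS (phosphate-buffered saline) and Control. Each of these compounds is a blocker of Kv1.3, the voltage-gated potassium channel that the study's title names. Age, sex, strain background, dose, route, duration and what set Control apart from PBS were not given in the sources used here, and every group carried the same genotype, so no group shows these genes without amyloid pathology. Each library was labelled as whole brain of 1 mouse.

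Cholesterol does not cross the blood-brain barrier, so the brain makes its own, with astrocytes and myelinating oligodendrocytes as its main producers in the adult. When sterol in the endoplasmic reticulum is low, SCAP escorts the transcription factor SREBP-2, the product of Srebf2, to the Golgi for cleavage, and the released fragment switches on the enzymes of synthesis. When sterol is ample, the INSIG proteins hold SCAP back. Neurons dispose of surplus cholesterol through the hydroxylase CYP46A1, whose product leaves the brain.

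The libraries held 14364013 to 19048551 counts each, 16662 to 17142 detected genes and RNA integrity numbers of 7.8 to 8.9. They did not all hold the same brain regions. A cerebellar index, the mean over 20 cerebellar marker genes of the level divided by that of the highest library, was 0.0477 to 0.0531 in ShK-223 libraries, 0.21, 0.0544 and 0.0538 in PAP-1 libraries 1, 2 and 3, 0.842 to 0.991 in PBS libraries, and 0.0507, 0.80 and 0.0515 in Control libraries 1, 2 and 3. Summed over the list, these markers came to 739 to 1294 CPM, the read count scaled to a common library size, in ShK-223, 845 to 2432 in PAP-1, 10241 to 11277 in PBS and 1097 to 9891 in Control. The cerebellar granule cell gene Gabra6 was at 0.056 to 0.429 CPM in ShK-223 libraries and 384 to 452 CPM in PBS libraries, and the Purkinje cell gene Skor2 was at 0 in 5 libraries: ShK-223 2 and 3, PAP-1 2 and 3, and Control 3. Cerebellar markers were thus present in PBS and Control 2 and, at a lower level, in PAP-1 1, and near 0 for the defining genes in the other 7 libraries, although all were labelled whole brain. Cerebellar content went with PBS treatment in every PBS library, so the 2 cannot be told apart where either compound is compared with PBS. Control 2 held cerebellar transcript without the PBS label. In bulk tissue, fewer cells of a type and less RNA per cell cannot be told apart either.

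In both comparisons with PBS most of the 26 genes were higher. Against PBS, 14 rose and 1 fell in ShK-223 libraries, where 18.8% of all tested genes were called higher and 20.3% lower, and 11 did not pass the test. With PAP-1 18 rose and 2 fell, where 21.1% of all tested genes were called higher and 22.6% lower, and 6 did not pass. A call meant an adjusted p of at most 0.05 in edgeR's quasi-likelihood test on the counts, with Benjamini-Hochberg adjustment over all 15061 genes. The median log2 fold change of the 26 genes was 0.45 for ShK-223 over PBS and 0.60 for PAP-1 over PBS, while that of all tested genes was -0.0066 and -0.014. Both comparisons share the PBS libraries.

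**Figure D1:**
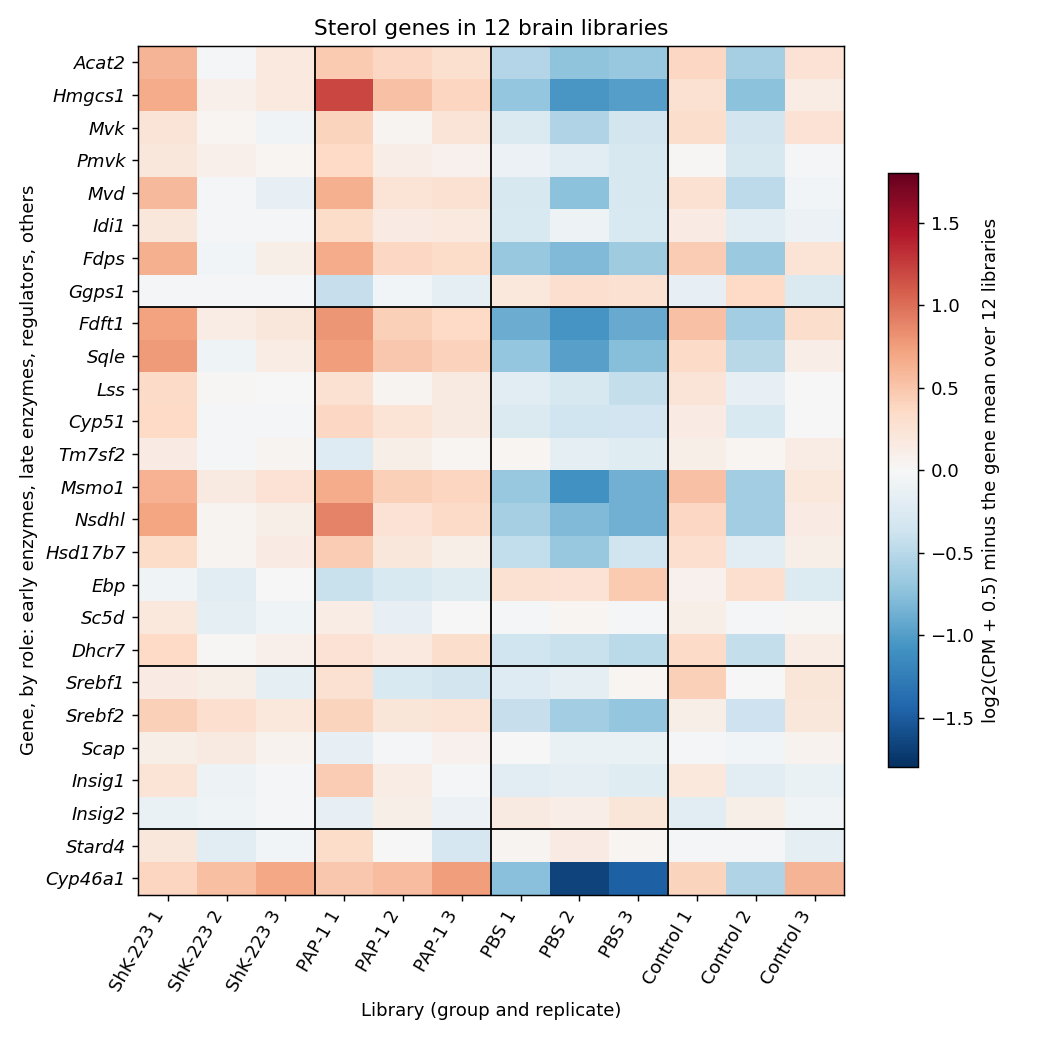
Level of the 26 genes in each of the 12 libraries, as log2(CPM + 0.5) minus the gene's mean over all libraries (colour scale, red above the mean and blue below). Rows follow the order of the pathway and columns the groups, and in most rows the 3 PBS libraries and Control 2 are blue while Ggps1, Ebp and Insig2 run the other way.

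The mevalonate arm joins acetyl units into isoprenoids and comprises 8 of the genes. Against PBS, 4 of the 8 rose with ShK-223 and 7 of 8 with PAP-1, and Ggps1 fell with PAP-1. The largest changes were those of Hmgcs1, the cytosolic HMG-CoA synthase that opens the committed route, which lies on chromosome 13 at 119690379-119708260 on the plus strand (GRCm38). It stood at 299.9, 203 and 213 CPM in ShK-223 libraries 1, 2 and 3, 438, 272 and 248 in PAP-1, 117, 91.5 and 95.1 in PBS, and 229, 113 and 209 in Control. Every ShK-223 and PAP-1 library exceeded every PBS library, and Control 2 lay within the PBS range. The log2 fold change over PBS was 1.24 with ShK-223 (SE 0.29, edgeR adjusted p = 0.0108) and 1.66 with PAP-1 (SE 0.29, edgeR adjusted p = 0.00355).

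Acat2 encodes the cytosolic thiolase that condenses acetyl-CoA ahead of HMG-CoA synthase. It measured 64.7, 41.3 and 47.5 CPM in ShK-223, 58.8, 54.9 and 51.8 in PAP-1, 29.2, 25.3 and 26.01 in PBS, and 54.9, 27.7 and 50.5 in Control. Again the ShK-223 and PAP-1 libraries did not overlap those of PBS, and Control 2 sat among the PBS libraries. Its log2 fold change over PBS was 0.93 with ShK-223 (SE 0.24, edgeR adjusted p = 0.0135) and 1.04 with PAP-1 (SE 0.24, edgeR adjusted p = 0.00796). The closely related Acat3, whose reads may be shared with it, had 1.25 (edgeR adjusted p = 0.0544) and 1.18 (edgeR adjusted p = 0.0624) and did not pass.

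Fdps, the farnesyl diphosphate synthase at the branch point to sterols, rose in both comparisons, by 0.97 with ShK-223 and 1.18 with PAP-1 on the log2 scale. Pmvk, the phosphomevalonate kinase, also rose in both, by 0.31 and 0.39. Mvk (mevalonate kinase), Mvd (diphosphomevalonate decarboxylase) and Idi1 (isopentenyl diphosphate isomerase) rose with PAP-1, by 0.62, 0.83 and 0.44. With ShK-223 their log2 fold changes were 0.46, 0.61 and 0.27 at edgeR adjusted p of 0.059, 0.0677 and 0.108, although their ShK-223 libraries all exceeded the PBS libraries. Passing the threshold with PAP-1 and missing it with ShK-223 does not show that the compounds differed, and the direct test of that difference is given further on.

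Ggps1 makes the geranylgeranyl diphosphate that is attached to small GTPases, on a branch that leaves the route to sterols. Its level was 52.6, 52.0 and 52.8 CPM in ShK-223, 40.0, 51.4 and 47.2 in PAP-1, 61.1, 65.8 and 64.4 in PBS, and 48.1, 68.4 and 44.5 in Control. The PBS libraries and Control 2 were the 4 highest of the 12. The log2 fold change over PBS was -0.28 with ShK-223 (SE 0.15, edgeR adjusted p = 0.15), which did not pass, and -0.46 with PAP-1 (SE 0.15, edgeR adjusted p = 0.0284). The PAP-1 call held in 2 of the 6 fits that left out 1 PAP-1 or PBS library.

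Of the 11 enzymes that turn farnesyl diphosphate into squalene, lanosterol and finally cholesterol, 8 rose with ShK-223 against PBS, 1 fell and 2 did not pass. The counts with PAP-1 were likewise 8, 1 and 2. Fdft1, the squalene synthase that commits farnesyl diphosphate to sterols, lies on chromosome 14 at 63145150-63179578 on the minus strand (GRCm38). It reached 156, 104 and 109.5 CPM in ShK-223, 164, 128 and 121 in PAP-1, 50.8, 45.1 and 50.3 in PBS, and 136, 61.1 and 118 in Control. PBS libraries lay closely together at the bottom, Control 2 came next, and no other library fell below 100 CPM. The log2 fold change over PBS was 1.34 with ShK-223 (SE 0.27, edgeR adjusted p = 0.00735) and 1.497 with PAP-1 (SE 0.27, edgeR adjusted p = 0.00371). Fdft1 shares 774 exon bases, 20.9% of its exon length, with the cathepsin gene Ctsb on the opposite strand, and whether counting used strand was not given in the sources used here. Ctsb itself had log2 fold changes of 0.36 and 0.16 over PBS with ShK-223 and PAP-1, neither of which passed (edgeR adjusted p = 0.104 and 0.434).

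Sqle, the squalene epoxidase, is a rate-limiting oxygenase of the late pathway. Its libraries read 118, 65.6 and 76.6 CPM in ShK-223, 117, 98.0 and 92.9 in PAP-1, 42.9, 35.0 and 40.8 in PBS, and 88.6, 49.1 and 75.4 in Control. The PBS libraries were the lowest and Control 2 the next lowest. Sqle rose by 1.13 with ShK-223 (SE 0.25, edgeR adjusted p = 0.00874) and by 1.38 with PAP-1 (SE 0.25, edgeR adjusted p = 0.00375) on the log2 scale.

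Msmo1 (a methylsterol monooxygenase) and Nsdhl (a sterol dehydrogenase) act together in removing methyl groups from the sterol ring. Msmo1 had 91.5, 65.7 and 70.8 CPM in ShK-223, 93.8, 79.04 and 77.4 in PAP-1, 36.4, 27.4 and 32.2 in PBS, and 85.2, 38.1 and 67.4 in Control. Nsdhl had 45.5, 28.5 and 29.6 CPM in ShK-223, 51.4, 33.1 and 35.1 in PAP-1, 18.1, 15.6 and 14.9 in PBS, and 36.0, 17.7 and 30.5 in Control. For both enzymes the blockers' libraries stood clear of PBS, and Control 2 stood next to or among the PBS libraries. Against PBS, Msmo1 rose by 1.25 with ShK-223 and 1.38 with PAP-1 (edgeR adjusted p = 0.00764 and 0.00393), and Nsdhl by 1.09 and 1.297 (edgeR adjusted p = 0.0138 and 0.00666), on the log2 scale.

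Hsd17b7, the keto-reductase of the same demethylation step, showed 32.8, 27.0 and 28.9 CPM in ShK-223, 36.0, 30.003 and 28.04 in PAP-1, 19.1, 16.0 and 20.3 in PBS, and 32.3, 22.5 and 28.1 in Control. Its PBS libraries were again below all others. It rose by 0.68 with ShK-223 (SE 0.15, edgeR adjusted p = 0.00996) and 0.76 with PAP-1 (SE 0.16, edgeR adjusted p = 0.00557) on the log2 scale.

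Smaller increases over PBS were called for Lss (lanosterol synthase), Cyp51 (lanosterol demethylase) and Dhcr7, the reductase that completes cholesterol. Their log2 fold changes were 0.44, 0.43 and 0.59 with ShK-223 and 0.48, 0.59 and 0.68 with PAP-1. Cyp51 shares 166 exon bases, 4.2% of its exon length, with Akap9 on the opposite strand. Akap9 itself had log2 fold changes over PBS of -0.53 with ShK-223 and -0.80 with PAP-1, and both passed (edgeR adjusted p = 0.00857 and 0.00218). Tm7sf2, a sterol reductase, and Sc5d, a sterol desaturase, did not pass in either comparison. Tm7sf2 was at 17.4 to 22.8 CPM and Sc5d at 70.1 to 90.5 CPM over all 12 libraries, with log2 fold changes over PBS of 0.17 and -0.01 with ShK-223 and 0.09 and 0.00 with PAP-1.

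Ebp, the sterol isomerase that shifts a double bond in the ring, went against the rest of the late enzymes. It was at 14.8, 13.5 and 15.4 CPM in ShK-223, 11.6, 12.7 and 13.2 in PAP-1, 18.8, 18.7 and 21.6 in PBS, and 16.3, 19.2 and 13.0 in Control. The 3 PBS libraries and Control 2 were the 4 highest of the 12. Ebp fell by 0.44 with ShK-223 (SE 0.14, edgeR adjusted p = 0.0332) and by 0.65 with PAP-1 (SE 0.14, edgeR adjusted p = 0.00692) on the log2 scale. The ShK-223 call for Ebp, like that for Pmvk, was lost in each of the 6 fits that left out 1 ShK-223 or PBS library.

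**Figure D2:**
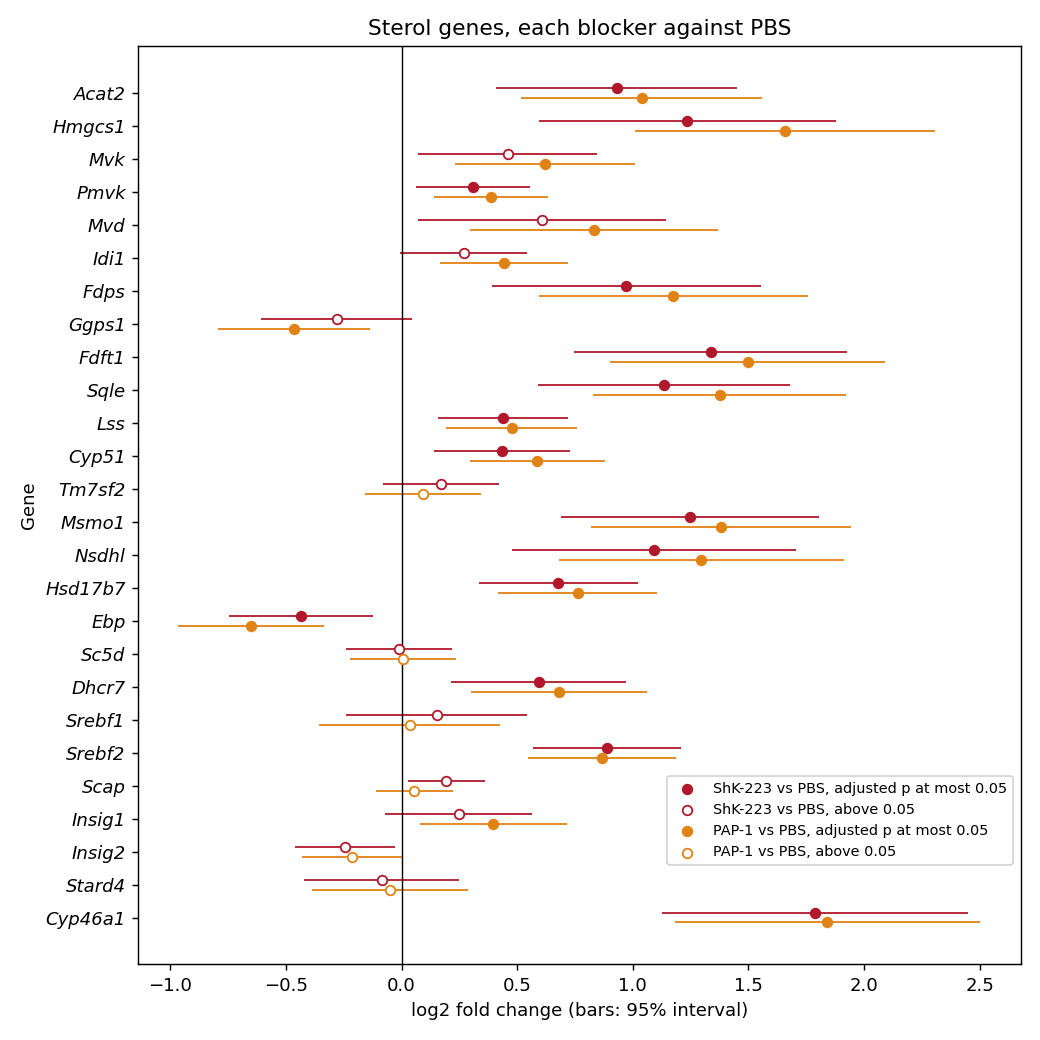
Log2 fold change of each of the 26 genes over PBS for ShK-223 (red) and PAP-1 (orange), from edgeR, with 95% intervals as bars and filled points where the adjusted p was at most 0.05. Cyp46a1, Fdft1, Msmo1 and Hmgcs1 lie farthest right in both comparisons, and Ebp and Ggps1 lie left of 0.

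Among the 5 SREBP regulators, Srebf2 was called with both compounds, Insig1 with PAP-1, and the other 3 with neither. Srebf2 lies on chromosome 15 at 82147181-82205379 on the plus strand (GRCm38). It stood at 359, 329 and 304 CPM in ShK-223, 351, 310.1 and 316 in PAP-1, 199.8, 172 and 163 in PBS, and 285, 206 and 306 in Control. The ShK-223 and PAP-1 libraries covered nearly the same range, PBS was lowest, and Control 2 was just above PBS. The log2 fold change over PBS was 0.89 with ShK-223 (SE 0.15, edgeR adjusted p = 0.00482) and 0.87 with PAP-1 (SE 0.15, edgeR adjusted p = 0.003).

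Srebf1, whose products act mainly on fatty acid genes, had 78.7, 76.9 and 62.7 CPM in ShK-223, 86.3, 58.6 and 56.3 in PAP-1, 60.5, 62.7 and 73.2 in PBS, and 96.5, 70.8 and 82.6 in Control. The groups overlapped, and its log2 fold changes over PBS of 0.15 with ShK-223 and 0.03 with PAP-1 did not pass (edgeR adjusted p = 0.511 and 0.886). The escort gene Scap had 90.3, 93.9 and 87.5 CPM in ShK-223, 75.9, 82.4 and 88.7 in PAP-1, 83.1, 77.3 and 77.2 in PBS, and 82.1, 81.3 and 87.6 in Control. For Scap the ShK-223 libraries were above those of PBS while the PAP-1 libraries overlapped them. Its log2 fold changes over PBS, 0.19 with ShK-223 and 0.06 with PAP-1, did not pass (edgeR adjusted p = 0.0632 and 0.572).

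Insig1 is itself a target of SREBP, and its protein retains SCAP in the endoplasmic reticulum. It had 94.4, 74.5 and 78.8 CPM in ShK-223, 109.7, 87.1 and 78.02 in PAP-1, 68.8, 71.3 and 68.6 in PBS, and 90.8, 69.7 and 73.4 in Control. Library 1 of ShK-223, PAP-1 and Control was the highest of its group, and the PBS libraries were all below those of both compounds. Insig1 rose by 0.40 with PAP-1 (SE 0.14, edgeR adjusted p = 0.045), and its value with ShK-223, 0.25 (SE 0.14, edgeR adjusted p = 0.188), did not pass. The PAP-1 call held in 1 of the 6 fits that left out 1 PAP-1 or PBS library.

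Insig2, the second retention protein, ran the other way at 33.1, 34.3 and 35.7 CPM in ShK-223, 32.7, 39.1 and 33.6 in PAP-1, 40.5, 39.4 and 42.3 in PBS, and 31.6, 38.8 and 34.7 in Control. PBS libraries were above all ShK-223 and PAP-1 libraries, by a narrow margin for PAP-1 2. The log2 fold changes over PBS of -0.25 and -0.21 did not pass (edgeR adjusted p = 0.0663 with ShK-223 and 0.0979 with PAP-1).

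Stard4, the cytosolic carrier that moves cholesterol between membranes, gave 62.4, 46.5 and 52.1 CPM in ShK-223, 67.9, 53.6 and 43.6 in PAP-1, 55.5, 59.98 and 55.5 in PBS, and 52.9, 52.9 and 48.2 in Control. The groups overlapped and neither compound's value passed (log2 fold changes over PBS of -0.09 and -0.05, edgeR adjusted p = 0.672 and 0.807).

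Cyp46a1, the neuronal hydroxylase by which the brain exports cholesterol, had the largest fold change of the 26 against PBS with each compound. It lies on chromosome 12 at 108334381-108362234 on the plus strand (GRCm38). Levels were 224, 250.3 and 277 CPM in ShK-223, 241, 251 and 288 in PAP-1, 102, 53.9 and 61.6 in PBS, and 227, 117 and 261 in Control. PBS 2 and PBS 3 were lowest, PBS 1 and Control 2 were close to each other, and the other 8 libraries lay together above 200 CPM. The log2 fold change over PBS was 1.79 with ShK-223 (SE 0.30, edgeR adjusted p = 0.00506) and 1.84 with PAP-1 (SE 0.30, edgeR adjusted p = 0.00275).

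**Figure D3:**
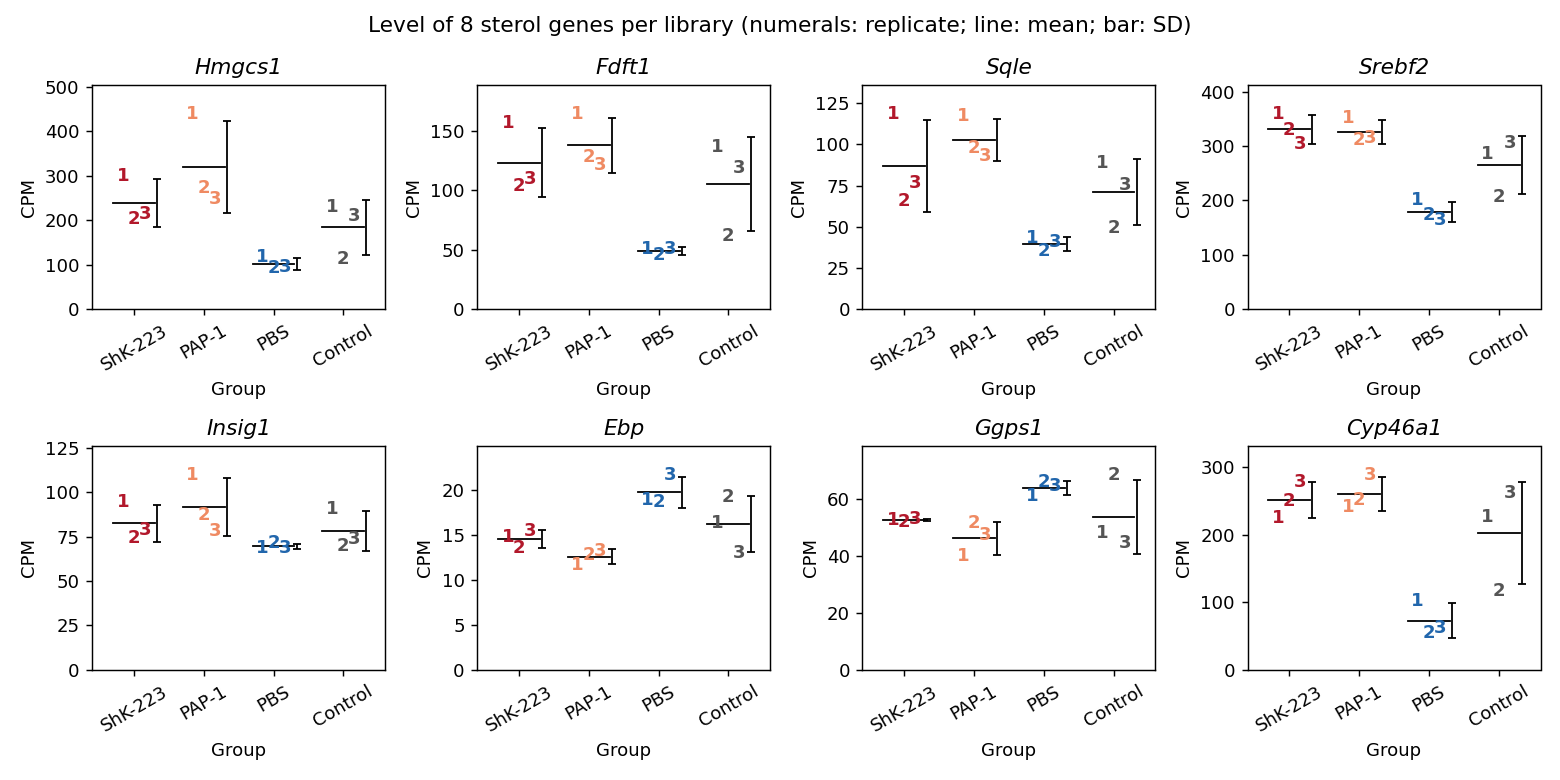
CPM of 8 of the genes in every library, with groups along the horizontal axis, numerals marking the replicate, lines the mean and bars the SD of 3 libraries. Numeral 2 of Control sits beside the PBS libraries in most panels, low for Hmgcs1, Fdft1, Sqle, Srebf2 and Cyp46a1 and high for Ebp and Ggps1.

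Without overlap between the groups' libraries, 19 of the 26 genes were higher and 3 lower with ShK-223 than with PBS, where 28.2% and 30.9% of all tested genes were so placed. For PAP-1 and PBS 18 were higher and 3 lower, where 28% and 31.4% of all tested genes were. Markers of cell types and regions moved in the same comparisons. With ShK-223 against PBS, all 20 cerebellar markers fell, 10 of 12 forebrain excitatory neuron markers rose, all 11 measured microglia markers rose, none of 16 myelin markers passed, and 1 of 12 astrocyte markers rose and 5 fell. With PAP-1 against PBS, 8 of 20 cerebellar markers fell and 12 were not called, though all 20 were lower without overlap between the groups. There, 9 of 12 forebrain markers and 8 of 11 microglia markers rose, 11 of 16 myelin markers fell, and 1 of 12 astrocyte markers rose and 5 fell. The forebrain index ran from 0.684 to 0.875 in ShK-223, 0.557 to 0.842 in PAP-1, 0.196 to 0.311 in PBS and 0.349 to 0.724 in Control. The myelin index ran from 0.403 to 0.807 in ShK-223, 0.249 to 0.51 in PAP-1, 0.502 to 0.90 in PBS and 0.579 to 0.845 in Control. The microglia index ran from 0.629 to 0.717 in ShK-223, 0.542 to 0.792 in PAP-1, 0.159 to 0.366 in PBS and 0.249 to 0.997 in Control.

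With the cerebellar index as a term in the edgeR fit, 0 of the 26 genes passed against PBS with either compound, and none of all tested genes did. The median log2 fold change of the 26 was then 0.085 with ShK-223 and 0.22 with PAP-1. The log2 fold changes with ShK-223 and PAP-1 were then 0.49 and 0.63 for Cyp46a1, against 1.79 and 1.84 without the term, and 0.35 and 0.85 for Hmgcs1, against 1.24 and 1.66. Dhcr7 turned to -0.15 and -0.012. The index differed between PBS and the 2 treated groups in every library, which leaves little of the treatment contrast in that fit.

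The labels name batches B, C and CH, with no word on what they are, and these were spread unevenly over the groups. In batch CH, 2 ShK-223 libraries could be set beside 1 of PBS. By the mean of the 2, 22 of the 26 genes were higher with ShK-223, including all 14 that had risen. Those 14 had been called in a fit that held these same libraries, so their direction here is no independent check. The median log2 difference was 0.58, against 0.0018 over all tested genes. In batch C, 1 PAP-1 library stood beside 2 of PBS. It was above the mean of those 2 for 20 genes, and the median was 0.47, against -0.036 over all tested genes. The PBS libraries of both batches had a cerebellar index of 0.842 or more, so cerebellar content and PBS stayed confounded within batches. With batch as a term in the fit, 0 of the 26 passed for ShK-223 over PBS (4 of all tested genes did), and the median was 0.35; Srebf2 and Cyp46a1 both had an edgeR adjusted p of 0.0664. For PAP-1 over PBS 11 rose and 1 fell with the batch term, in a fit that called 18.3% of all tested genes.

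**Figure D4:**
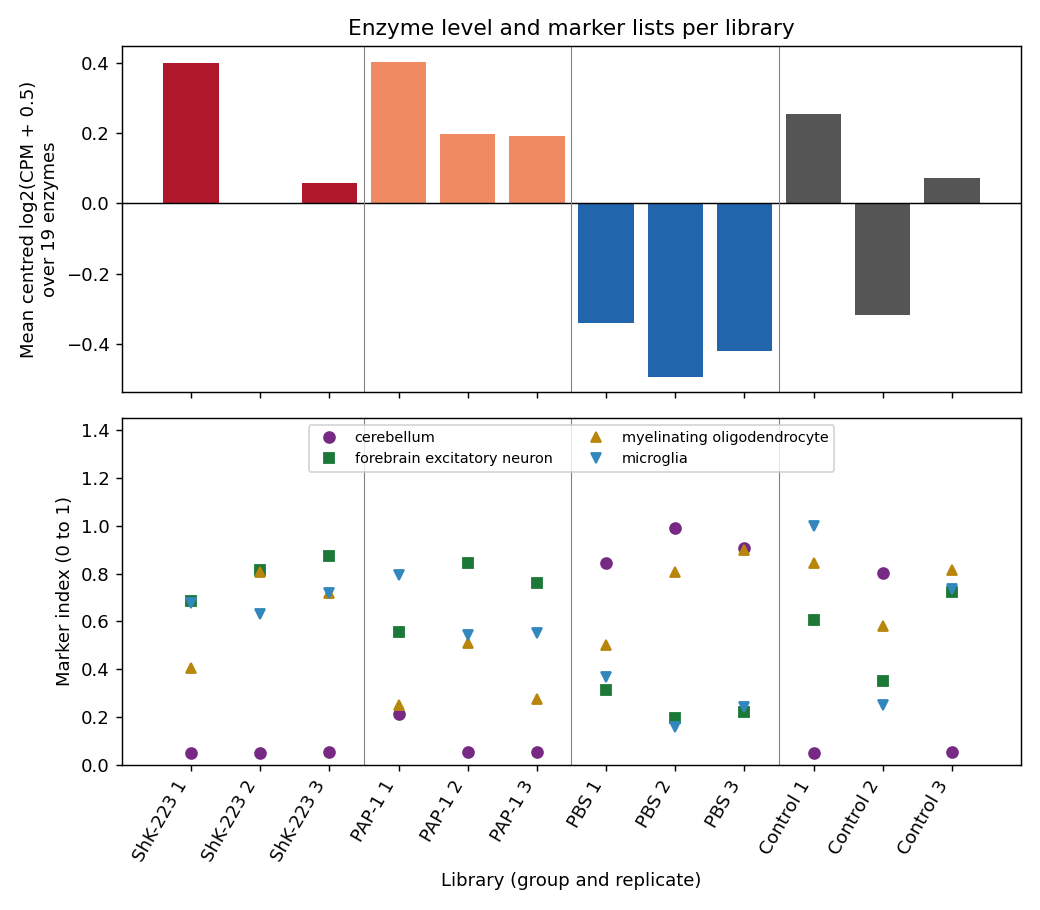
Top, the mean over the 19 enzymes of log2(CPM + 0.5) centred on each gene's mean, as 1 bar per library. Bottom, the index of 4 marker lists in the same libraries (0 to 1, mean of CPM over that of the highest library); the bars below 0 by more than 0.3 belong to the 4 libraries with a cerebellar index of 0.80 or more.

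PBS against Control was the other comparison in which any of the genes passed. Against Control, 3 genes fell in PBS and 0 rose, where 4.61% of all tested genes were called lower and 0.412% higher. They were Fdft1 (log2 fold change -1.11, SE 0.27, edgeR adjusted p = 0.0455), Srebf2 (-0.57, SE 0.14, edgeR adjusted p = 0.0496) and Cyp46a1 (-1.48, SE 0.30, edgeR adjusted p = 0.0383). At an unadjusted p under 0.05, 14 of the 26 differed, as did 34% of all tested genes. DESeq2 called 10 of the 26, all lower, and 2928 of the 18750 genes in its fit (15.6%). The median log2 fold change of the 26 was -0.36, and Ggps1, Ebp, Insig2 and Stard4 were the 4 with a positive value. Without overlap, 8 were lower and 2 higher in PBS, where 15.8% and 13.5% of all tested genes were.

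The count depended on single libraries, as did that over all tested genes. It was 0 without Control 1, Control 3, PBS 2 or PBS 3, where at most 0.00654% of all tested genes were called. It was 17 without Control 2, where 43.9% were. Control 2 was below both other Control libraries for 22 of the 26 genes and above both for 4, where 41.6% and 45.7% of all tested genes were so placed. Its median ratio to their mean was 0.761, and the ratio of the PBS mean to the same value had a median of 0.706. The 4 genes that were higher in Control 2 were Ggps1, Ebp, Insig2 and Stard4. All 3 PBS libraries and Control 2 lay below every one of the other 8 libraries for 17 of the 26 genes, where 18.4% of all tested genes did, and above every one for Ggps1 and Ebp, where 23.4% did. Among the 17 were 14 enzymes, Srebf2, Insig1 and Cyp46a1. Without Control 2, PBS against Control gave 14 genes lower and 3 higher, in a fit that called 43.9% of all tested genes. Without Control 2 and PAP-1 1 it gave 15 lower and 3 higher, the 3 being Ggps1, Ebp and Insig2, and called 47.8% of all tested genes. Leaving out those 2 libraries also gave 17 higher and 3 lower for ShK-223 over PBS, where 51% of all tested genes were called, and 17 higher and 2 lower for PAP-1 over PBS, where 49.9% were. In batch C, the mean of the 2 PBS libraries was below Control 2 for 18 genes and above it for 8. The median log2 difference was -0.05. In batch CH, where PBS 2 stood beside Control 3, 20 genes were lower in PBS and the median was -0.47. The part of the cerebellar content of Control 2 in these values was not tested within a group.

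**Figure D5:**
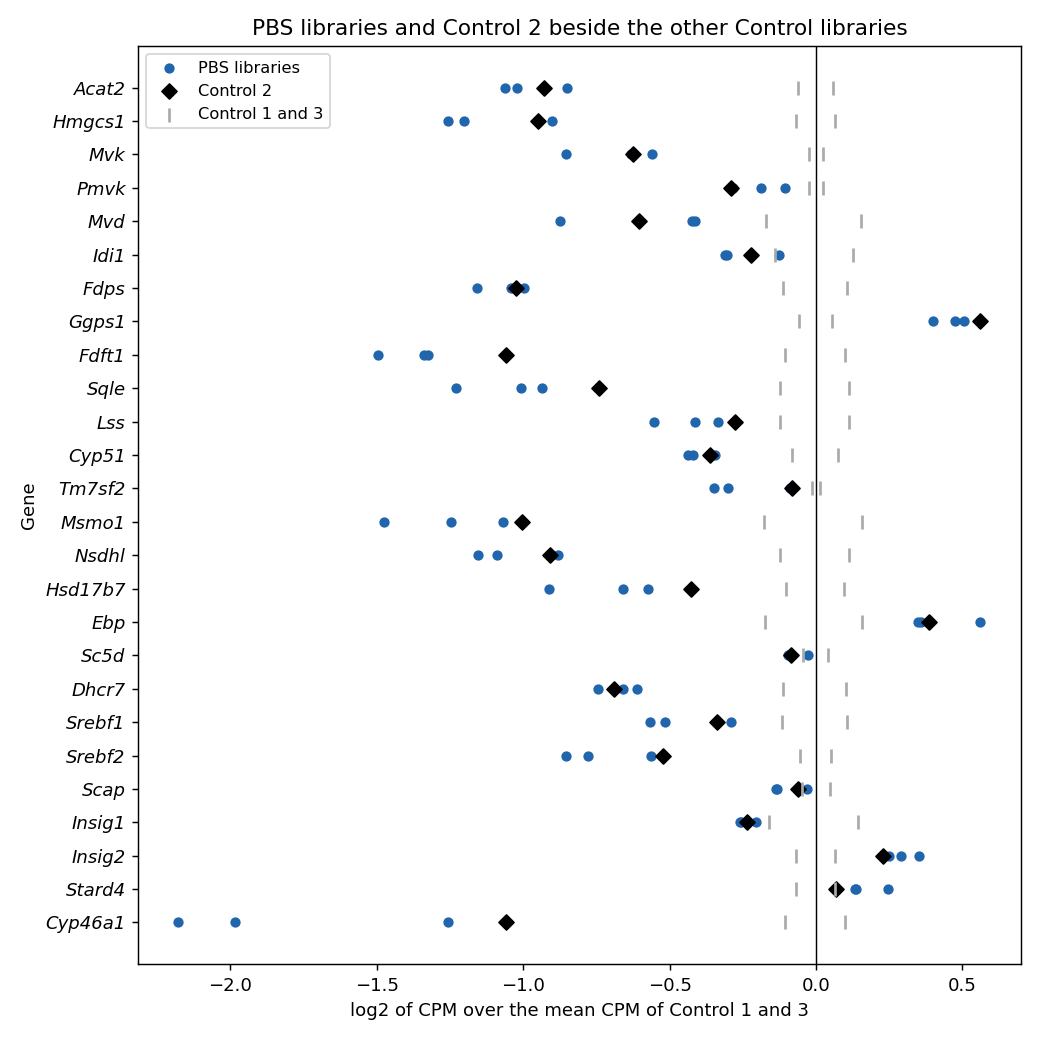
For each gene, log2 of the CPM of the 3 PBS libraries (blue) and of Control 2 (black diamonds) over the mean CPM of Control 1 and 3 (grey ticks). The diamonds lie with the blue points for most genes, left of 0 for 22 genes and right of it for Ggps1, Ebp, Insig2 and Stard4.

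Against Control, where the PBS levels are not compared, no gene passed with either compound. The PBS libraries still entered the shared estimate of the spread. For ShK-223 over Control 0 of the 26 were called, as were 0% of all tested genes in each direction. None of the 26 had an unadjusted p under 0.05, where 6.82% of all tested genes did. DESeq2 called 0 of the 26 and 0.048% of all genes in its fit. The median log2 fold change was 0.12, and 0.02 without Control 2. Without overlap, 1 gene (Pmvk) was higher and 0 lower with ShK-223, where 5.26% and 5.29% of all tested genes were. For PAP-1 over Control 0 of the 26 were called, again with 0% of all tested genes in each direction. There, 4 had an unadjusted p under 0.05, as did 15.2% of all tested genes, which is about the same share. DESeq2 called 0 of the 26 and 2.02% of all genes in its fit. The median was 0.25, which became 0.10 without Control 2. Hmgcs1 had the largest value, 0.80 (SE 0.29, edgeR adjusted p = 0.258). Without overlap, 5 genes were higher (Hmgcs1, Pmvk, Sqle, Cyp51 and Srebf2), where 9.06% of all tested genes were, and 0 lower, where 8.87% were. Marker levels also differed from Control at an unadjusted p under 0.05, though none passed adjustment. These were 18 of 20 cerebellar markers with ShK-223, where 6.82% of all tested genes did. With PAP-1 they were 15 of 16 myelin and 6 of 10 striatal projection neuron markers, where 15.2% did. The striatal index was 0.0976 to 0.146 in PAP-1, and 1, 0.0916 and 0.794 in Control 1, 2 and 3. The part of these differences in the values of the 26 genes was not tested.

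Within batch B, ShK-223 2 was lower than Control 1 for 20 of the 26 genes (median log2 difference -0.26). In batch CH, by contrast, the mean of the 2 ShK-223 libraries was higher than Control 3 for 21 (median 0.16). For PAP-1 against Control in batch B, the mean of the 2 PAP-1 libraries was higher for 18 genes (median 0.05). In batch C, PAP-1 2 was higher than Control 2 for 22 (median 0.41). Control 2, the only Control library of batch C, had a cerebellar index of 0.80, against 0.0544 in PAP-1 2. The part of that content in the difference was not tested.

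The peptide and the small molecule were compared directly as 1 pair of compounds, at doses not given in the sources used here. For ShK-223 over PAP-1 0 of the 26 genes passed, and 0% of all tested genes were called in either direction. None of the 26 had an unadjusted p under 0.05 (684 of all tested genes did). DESeq2 called 0 of the 26 and 0.0267% of all genes in its fit. The median log2 fold change was -0.09. The 95% interval of the log2 difference was -1.05 to 0.21 for Hmgcs1, which had the largest difference at -0.42. It was -0.74 to 0.42 for Fdft1, -0.30 to 0.34 for Srebf2, -0.69 to 0.59 for Cyp46a1 and -0.10 to 0.53 for Ebp. Without overlap between the groups, 2 genes (Ggps1 and Ebp) were higher with ShK-223 and 0 lower, where 4.97% and 5.64% of all tested genes were. The intervals still hold differences in either direction, so the compounds are not shown to act alike. Of 16 myelin markers, 13 had an unadjusted p under 0.05 in this comparison, where 4.54% of all tested genes did, and none passed adjustment. Their part in the values of the 26 genes was not tested. In batch B, ShK-223 2 was lower than the mean of the 2 PAP-1 libraries for 20 of the 26 genes (median -0.26).

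In each treated group, 1 library was above both others for most of the 26 genes. ShK-223 1 was above both other ShK-223 libraries for 21 of the 26 genes, where 40.0% of all tested genes were, and its enzymes had a median ratio to the others' mean of 1.26. PAP-1 1 was above both others for 19 genes (41.7% of all tested genes), with a median enzyme ratio of 1.20. Control 1 was above both others for 18 genes (27.9% of all tested genes), with 1.28. PBS 1 was above both others for 16 genes (40.7% of all tested genes), with 1.09. PAP-1 1 was the highest of all 12 libraries for 13 of the 26 genes and ShK-223 1 for 7, where 12.7% and 7.42% of all tested genes had their highest value there. PBS 2 was the lowest for 11, where 18.9% of all tested genes had their lowest value. The 2 highest libraries had low myelin indices, 0.403 in ShK-223 1 and 0.249 in PAP-1 1, while Control 1 had 0.845. PAP-1 3 also had a low myelin index, 0.277, with a median enzyme ratio of 0.896. The part of myelin content in the enzyme levels was not tested. Without ShK-223 1 the calls against PBS numbered 9 in place of 15, where 27.1% of all tested genes were called in place of 39.1%. Without PBS 2 they numbered 8, where 20.6% of all tested genes were called. Of the 15, 8 passed in all 6 fits that left out 1 library, among them Hmgcs1, Fdft1, Sqle, Srebf2 and Cyp46a1. For PAP-1, 13 of the 20 did, and Insig1, Ggps1, Idi1, Pmvk, Mvk, Mvd and Lss did not.

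The promoter windows show what sequence these genes share ahead of their starts. RefSeq (GRCm38.p6) gave a window of 250 bases before the start for 22 of the 26 genes, 30 windows in all. The CCAAT box, which the factor NF-Y binds beside SREBP sites, was searched as CCAAT on both strands and was present in 21 of the 30 windows (70%), against 33.8% of all 32851 RefSeq windows. At least 2 boxes were in 11 windows (36.7%, against 10.1% of all). A core of the sterol regulatory element, searched as TCACNCCAC on both strands, was in 1 window (3.33%, against 1.05% of all), that of Hmgcs1. No match of one motif overlapped a match of the other in the windows printed here. The Hmgcs1 window is shown because the gene changed most among the enzymes in PAP-1 libraries, and that of Cyp46a1 because it changed most of all 26; capitals mark the matches, with ATTGG being CCAAT on the other strand. The windows lie at chr13:119690101-119690350 and chr12:108334066-108334315, both on the plus strand.
Hmgcs1: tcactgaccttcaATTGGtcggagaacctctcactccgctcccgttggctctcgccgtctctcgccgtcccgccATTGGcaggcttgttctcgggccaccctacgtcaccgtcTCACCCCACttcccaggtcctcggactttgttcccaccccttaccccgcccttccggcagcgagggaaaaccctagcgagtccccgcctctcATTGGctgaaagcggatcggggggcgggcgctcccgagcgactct
Cyp46a1: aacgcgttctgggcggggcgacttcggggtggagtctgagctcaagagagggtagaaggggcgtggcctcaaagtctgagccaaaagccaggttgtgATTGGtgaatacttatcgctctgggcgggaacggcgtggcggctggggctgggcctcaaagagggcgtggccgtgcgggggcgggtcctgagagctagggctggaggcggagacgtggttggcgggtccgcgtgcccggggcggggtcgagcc
The Hmgcs1 window holds 3 CCAAT boxes and the sterol element, whose first base is 137 bases before the start. That of Cyp46a1 holds 1 CCAAT box, 153 bases before the start, and no match to the sterol element. A match is a description of letters and not of binding.

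Genes around the pathway moved in both directions against PBS. The shares of all tested genes to set beside the counts that follow are 18.8% higher and 20.3% lower with ShK-223, and 21.1% higher and 22.6% lower with PAP-1, and no list below was tested against them. Of 26 genes of sterol export, esterification and turnover, 4 rose and 5 fell with ShK-223, and 5 rose and 9 fell with PAP-1. Cyp27a1, a mitochondrial sterol hydroxylase, was at 5.73 to 8.28 CPM in ShK-223, 4.55 to 5.54 in PAP-1, 15.3 to 26.4 in PBS, and 7.46, 19.8 and 7.23 in Control. It fell by 1.57 with ShK-223 and 2.15 with PAP-1 on the log2 scale. The sterol exporter Abcg1 fell by 0.55 and 0.67, and Nceh1, a cholesteryl ester hydrolase, rose by 0.49 and 0.47.

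Of 13 lipoprotein particle and receptor genes, 3 rose and 3 fell with ShK-223, and 4 rose and 5 fell with PAP-1. The lipoprotein receptor Vldlr was at 80.1 to 95.5 CPM in ShK-223, 87.8 to 93.4 in PAP-1, 184 to 188 in PBS, and 92.1, 179 and 90.2 in Control. It fell by 1.06 and 1.03, as did the phospholipid transfer protein Pltp by 1.05 and 0.85, while the sorting receptor Sort1 rose by 1.09 and 0.94. Vldlr in Control 2 was at the level of PBS and not of the other Control libraries.

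Of 20 fatty acid genes that SREBP also serves, 6 rose and 5 fell with ShK-223, and 4 rose and 7 fell with PAP-1. The desaturase Fads2 rose by 0.63 and 0.73, and the elongases Elovl5 and Elovl6 fell by 0.48 and 0.57 with ShK-223 and by 0.67 and 0.74 with PAP-1. Of 12 genes of SREBP processing and sterol sensing, 2 rose and 0 fell with ShK-223, and 2 rose and 1 fell with PAP-1. Pgrmc1, a haem-binding membrane protein, rose by 0.60 with ShK-223 and 1.12 with PAP-1 on the log2 scale. Mbtps1, the Golgi protease that makes the first cut in SREBP, fell by 0.31 with PAP-1.

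Of 14 genes of the non-sterol branches, 2 rose and 5 fell with each compound. Icmt, the methyltransferase that finishes prenylated proteins, was at 82.1 to 93.8 CPM in ShK-223, 83.7 to 115 in PAP-1, 464 to 504 in PBS, and 84.002, 441 and 84.5 in Control. It fell by 2.49 with ShK-223 and 2.37 with PAP-1 on the log2 scale. Fnta, a farnesyltransferase subunit, fell by 0.61 and 0.65, and Nus1, a subunit of the dolichol-making enzyme, rose by 0.35 and 0.41. The Icmt level of Control 2 lay beside PBS, as its cerebellar index did.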

How the data were processed

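RNA from 12 mouse brains labelled whole brain was sequenced in pairs of reads, and the authors deposited raw counts per gene for each library. The submitters' processing notes list STAR 2.7.11a, the builds GRCm38 and mm10, DESeq2 1.40.2 and R 4.3.2. How reads were assigned to genes, with which annotation and whether by strand, was not given in the sources used here. Groups came from the treatment label, with 3 libraries each. The p-values rest on the spread between mice within groups, as 1 estimate per gene shared by the 4 groups. That spread includes the differences in cerebellar content between libraries of Control and of PAP-1.

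Counts were tested with edgeR 4.0.16 in R 4.3.3 (filterByExpr, TMM scaling, glmQLFit and glmQLFTest, 1 fit of all 12 libraries with a group term), with Benjamini-Hochberg adjustment over 15061 genes and a threshold of 0.05. The SE is the log2 fold change over the root of F. CPM were computed from the deposited counts on TMM-scaled totals. The scripts were tested on simulated data. The replicate numbers follow accession order and pair nothing. Values were given in every library for the 8 genes of smallest p in each comparison with PBS, the regulators, Stard4, Cyp46a1 and, chosen after their values were seen, Ggps1 and Ebp; of each neighbouring list up to 3 genes of smallest p were named. The 26 genes and all lists (9 marker and 5 pathway lists, 189 of 190 symbols matched) were chosen with earlier results of these data known. Alternatives were RLE scaling, DESeq2 1.42.0, other filters, batch, the cerebellar index, fewer groups, and libraries left out. Results for some genes of the pathway are not reported here. Gene coordinates are from GENCODE for GRCm38 and promoter windows from RefSeq.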

Additional observations from a re-analysis of the deposited data

How the results depend on the processing

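For ShK-223 over PBS the count of genes called was 15 of 26, where 39.1% of all tested genes were called. It was within 1.5 times of that under RLE scaling, DESeq2, both other filters on low counts and the fit of only the groups compared. The same held for the fit without Control 2 and PAP-1 1. The count was 0 with the batch term (0.0266% of all tested genes called) and 0 with the index term (0%). The index term was the library's cerebellar index as covariate. With 1 library left out the count was 8 to 13, where 20.6% to 31.7% of all tested genes were called. For PAP-1 over PBS the count of 20 (43.7% of all tested genes called) became 12 with the batch term (18.3%) and 0 with the index term (0%). With 1 library left out it was 14 to 20, where 25.7% to 37.6% of all tested genes were called. For PBS over Control the count of 3 (5.02% of all tested genes called) became 10 with DESeq2 (15.6%) and 18 without Control 2 and PAP-1 1 (47.8%). It was 0 with the batch term (0.0133%), the index term (0%) and only the groups compared (0%). With 1 library left out it was 0 to 17. It was 17 without Control 2 (43.9%), and 0 without Control 1, Control 3, PBS 2 or PBS 3 (at most 0.00654%). The count stayed 0 for the 3 comparisons without PBS under every alternative run. The sign of a called gene turned only with the index term: for ShK-223 over PBS in Acat2 (-0.062), Fdps (-0.069) and Dhcr7 (-0.15), and for PAP-1 over PBS in Ggps1 (0.065) and Dhcr7 (-0.012), as log2 fold changes. The causes were not tested, and the fits that leave some libraries out also differ in the number of libraries.

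No paired analysis was possible because the labels number no replicates and the numbers used here pair no libraries.

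Groups of 3 libraries limit these tests, and the lowest count of any of the 26 genes in a library was 177. Regional content and PBS treatment were confounded, batches were spread unevenly over the groups, and reads of overlapping genes could not be separated. A gene that missed the threshold is not shown to be unchanged.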
